A study of Mus musculus with 4 samples.

Results

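The Myc and Pvt1 locus on mouse chromosome 15 was taken as a window of 1.3 Mb, from 61.0 to 62.3 Mb of the mm9 genome build. It held 13 of the 3190 regions that a peak caller reported from an open chromatin assay on cancer cells of a mouse mammary tumour model, and 13 of the 126 on chromosome 15. A region, or peak, belonged to the window when its midpoint lay inside it. The members were selected on the chromosome and midpoint of the listed peaks, and the window was chosen with this same list, and its density there, in view. The number of peaks, their positions, widths and scores are therefore given as a description, without a test, and do not support the choice of the locus.

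The assay was FAIRE-seq, in which chromatin is crosslinked with formaldehyde and the DNA that stays soluble, poor in nucleosomes, is recovered and sequenced. There were 4 libraries: for each of 2 conditions, 1 of FAIRE DNA and 1 of input DNA. Hyperglycemic cancer cells came from MMTV-PyMT/PANIC mice and euglycemic control cells from MMTV-PyMT mice. All were on the FVB background, and the genotype entry of every library is MMTV-PyMT, the transgene in which a mammary tumour virus promoter drives the polyomavirus middle T antigen. The cells were freshly isolated, cultured in DMEM with 10% fetal bovine serum and given no treatment. The age of the mice was not stated. The glucose state and the mouse line vary together and cannot be told apart. The peaks come from 1 list that names no library and no control, and the list gives no read counts, so depth is unknown. No peak could be assigned to hyperglycemic or euglycemic cells, no condition was compared with the other, and there were no replicates. Whether a listed peak marks enrichment over input or a difference between the conditions is not known here. No expression value was available to check the labelled cell type against its markers.

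Myc encodes a transcription factor of the basic helix-loop-helix leucine zipper class that promotes cell growth and proliferation and is among the most studied oncogenes. Pvt1, downstream of Myc, is a long noncoding RNA gene first known as a site of chromosome translocation and of retroviral insertion in mouse tumours. Myc is known to be regulated by distal enhancers spread over the gene-poor stretches on both of its sides, with different tissues using different elements. In the gene order of the RefSeq table for GRCm38.p6, used only for names and neighbours, no entry lies between Myc and Pvt1. The previous protein-coding gene was A1bg, which encodes a secreted plasma glycoprotein, and the 7 entries between it and Myc were 4 long noncoding RNA genes, 2 pseudogenes and 1 small nucleolar RNA gene. The next protein-coding gene after Pvt1 was Gsdmc, of the gasdermin family of pore-forming proteins, with 15 noncoding or pseudogene entries in between. Myc is taken here at 61.817 to 61.822 Mb of mm9, both ends rounded to 1 kb, and is read toward higher coordinates. Positions of Pvt1, A1bg and Gsdmc in mm9 were not used here, so no peak was placed inside or outside Pvt1, and exons, introns and untranslated regions were not assigned.

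No listed peak overlapped Myc itself. The nearest peak began 505 bp past the end of the gene, at 61822505 to 61823448, and with the rounding of the gene's end this distance lies between 5 and 1005 bp. It was 944 bp wide with a score of 70.58, where the score is the peak caller's own value, on a scale not stated, and has a median of 64.42 over the 3189 nuclear peaks of the list. On the other side of Myc the nearest peak ended 448.5 kb before the gene's start. The start of Myc and the 448.5 kb upstream of it thus held no listed peak. The empty stretch that includes Myc ran for 454 kb, the longest gap between neighbouring peaks in the window, and 38.5% of autosomal gaps were longer. With unknown depth, a stretch without a listed peak does not show closed chromatin.

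The 13 peaks fell into an upstream group of 6 and a downstream group of 7, separated by this stretch. All 6 upstream peaks lay between 448.5 and 777.2 kb from Myc. The 7 downstream peaks lay between 0.5 and 370.5 kb from it. Within 100 kb of Myc there were 0 upstream and 2 downstream peaks, within 500 kb 2 and 7, and within 1000 kb 6 and 7. Per length of window on each side, the upstream 817 kb held 7.34 peaks per Mb and the downstream 478 kb held 14.6 per Mb. These lengths were set by the window's edges, so the rates do not show a denser downstream side. Over equal lengths on each side the balance depended on the length taken. The upstream and downstream counts were 0 and 3 over 250 kb, 2 and 7 over 500 kb, and 6 and 7 over 1000 kb. The plot of score and width along the locus shows the 2 groups and the empty stretch that ends at Myc.

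**Figure D1:**
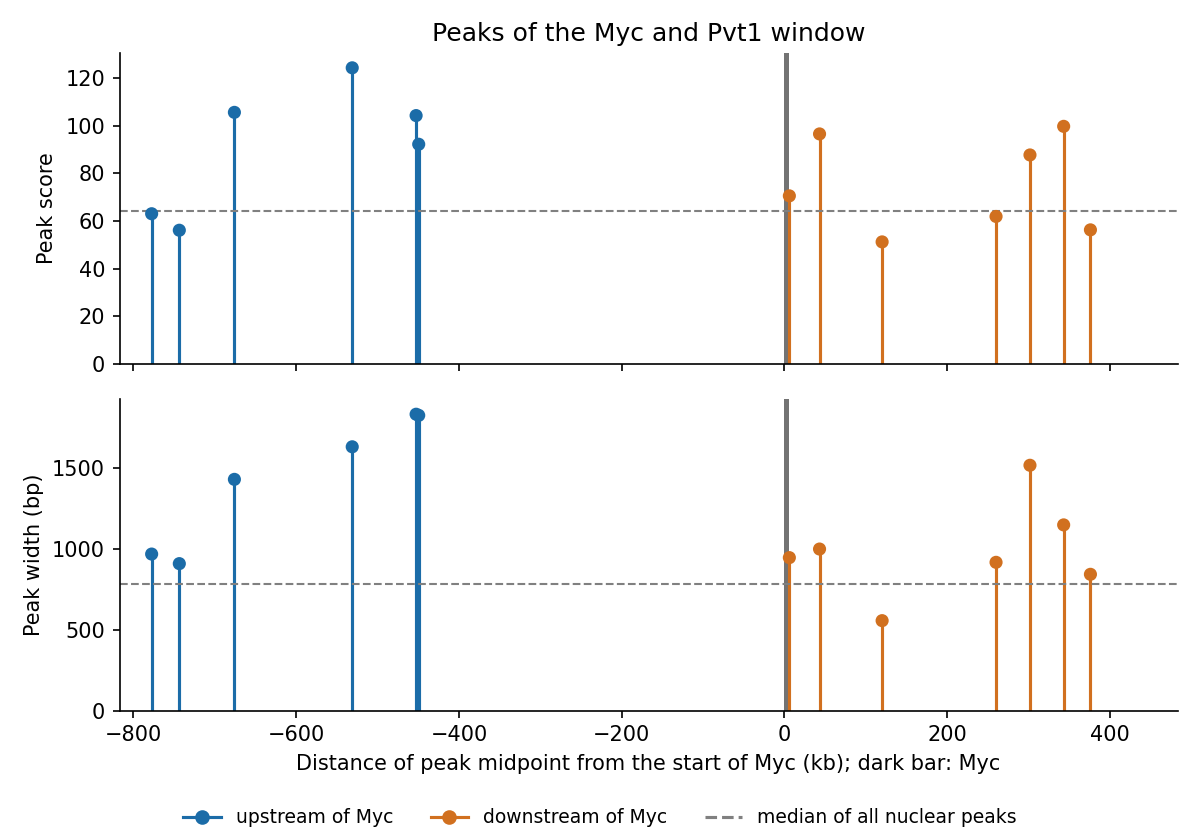
Score (upper panel) and width in bp (lower panel) of each of the 13 peaks, against the distance of its midpoint from the start of Myc in kb, with upstream peaks in blue, downstream peaks in orange, Myc as a dark bar and the median of all nuclear peaks as a dashed line. The 5 highest widths include 4 upstream peaks, and no peak lies between the upstream group, which ends 448.5 kb before Myc, and the gene.

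The upstream group, in the gene-poor stretch before Myc, held the widest and the highest scoring peaks of the window. The farthest, at 61038835 to 61039800, was 966 bp wide with a score of 63.08. It was followed by a peak at 61072877 to 61073783, 907 bp wide with a score of 56.16. These outermost peaks had the lowest scores of the upstream group, below the list's median, and lay 33.1 kb apart.

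Nearer to Myc the upstream peaks were wider. The peak at 61140266 to 61141692, 675.3 kb before Myc, was 1427 bp wide with a score of 105.59. The peak at 61284978 to 61286605, 530.4 kb before Myc, was 1628 bp wide and had the highest score of the window, 124.27. That score was the 4th highest of the 126 peaks of chromosome 15 and higher than 95.1% of all nuclear peaks.

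The innermost upstream peaks formed a close pair, 451.8 and 448.5 kb before Myc. The first, at 61363401 to 61365229, was 1829 bp wide with a score of 104.24. The second, at 61366635 to 61368456, was 1822 bp wide with a score of 92.22. They were the widest and the second widest peaks of chromosome 15, and ranked 10 and 12 in width among the 3189 nuclear peaks. Only 1405 bp separated them, the shortest gap in the window, so that the pair spanned 5056 bp and held 23.6% of the bases covered by the window's peaks. Of 208 pairs of neighbouring autosomal peaks with a gap of up to 10 kb, this pair, singled out after its values were seen, was the 1 in which both peaks were at least 1822 bp wide. Whether the pair is 1 broad region divided by the caller was not tested.

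The downstream group began beside Myc and ran in the direction of Pvt1. After the peak just past Myc came one at 61859628 to 61860624, 37.6 kb from the gene, 997 bp wide with a score of 96.55. The next, at 61936744 to 61937298, 114.7 kb from Myc, had the lowest score and was the narrowest of the window, 555 bp wide with a score of 51.27. The lowest score of the whole list was 50.01, so this peak stood near the lower end of the list.

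A gap of 139.2 kb separated it from the 4 outer downstream peaks, which followed each other at 31.8 to 40.5 kb. The first of them, at 62076507 to 62077421, was 915 bp wide with a score of 61.94. The peak at 62117926 to 62119439, 295.9 kb from Myc, was 1514 bp wide, the widest of the downstream group, with a score of 87.73. The peak at 62159576 to 62160721, 337.6 kb from Myc, was 1146 bp wide and had the highest score of the downstream group, 99.73. The last, at 62192543 to 62193383, was 841 bp wide with a score of 56.32. Within this outer group the middle peaks were thus wider and scored higher than the outer ones.

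Between the groups, widths and scores overlapped. The median width was 1527.5 bp upstream (range 907 to 1829 bp, n = 6 peaks) and 944 bp downstream (range 555 to 1514 bp, n = 7 peaks). Without the close pair the upstream median was 1196.5 bp over 4 peaks. The median score was 98.2 upstream (range 56.16 to 124.27) and 70.58 downstream (range 51.27 to 99.73). A score of 100 or more was reached by 3 upstream and 0 downstream peaks, beside 387 of the 3189 nuclear peaks (12.1%). The highest downstream score, 99.73, lay just below that limit. At or above the list's upper quartile of score, 80.99, stood 4 of 6 upstream and 3 of 7 downstream peaks. Peaks of 1 list are not replicates of a condition, and these differences were not tested.

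The peaks around Myc were wide for the list. The median width in the window was 997 bp (95% interval of the median from order statistics 907 to 1628 bp, n = 13), beside 788 bp (726 to 838 bp) for the other 113 peaks of chromosome 15 and 777.5 bp (769 to 788 bp) for the other 3176 nuclear peaks. Of the 13 peaks, 12 were wider than the nuclear median of 779 bp, the exception being the peak 114.7 kb downstream. The window held 6 of the 10 widest peaks of chromosome 15. Of the 6 peaks of chromosome 15 that were at least 1400 bp wide, 5 lay in the window, where they made up 38.5% of the peaks. In all nuclear peaks that share was 2.70%. The limit was set after the values were seen and lies just below the 1427 bp of the window's 5th widest peak. The 2 shares are therefore given without intervals and are not a test. Other windows dense in peaks also held such wide peaks, with 4 of 15 in the densest autosomal window of the same length, on chromosome 5. The intervals given for medians and shares cover sampling error only, treat peaks as independent and take no account of how the window was chosen.

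Fewer of the window's peaks ranked among the 10 highest of chromosome 15 by score than by width, but among the 20 highest the counts were close. The median score in the window was 87.73 (95% interval of the median 56.32 to 104.24), beside 64.96 (61.73 to 71.08) for the other peaks of chromosome 15, and these intervals overlapped. The window held 1 of the 10 highest scoring peaks of chromosome 15 and 5 of the 20 highest. By width it held 6 of the 10 widest and also 6 of the 20 widest. At or above the list's upper quartile of score, 80.99, stood 7 of the 13 peaks, and 3 of 13 (23.1%, exact binomial 95% interval 5.04% to 53.8%) reached 100, beside 12 of the other 113 on the chromosome (10.6%, 5.61% to 17.8%).

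Width and score rose together in the window, with Spearman's rho of 0.85 over its 13 peaks, beside 0.34 over the other 113 of chromosome 15 and 0.40 over the other 3176 nuclear peaks. It was 0.54 over the 6 upstream peaks and 0.89 over the 7 downstream peaks. Both values come from the same caller and the same peaks, and the relation is a description. The widths are therefore also given by score. Among peaks at or above the upper quartile of score, the median width was 1514 bp for the 7 of the window (range 997 to 1829 bp), 917 bp for 25 others on chromosome 15 and 910 bp for 791 others in the nuclear genome. Below that score, the median was 911 bp for the 6 of the window (range 555 to 966 bp). It was 756 bp for 88 others on the chromosome and 740 bp for 2385 others in the genome. Both of these medians lie inside the range of the window's 6 peaks. The plot of width against score places the 13 peaks among the rest.

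**Figure D2:**
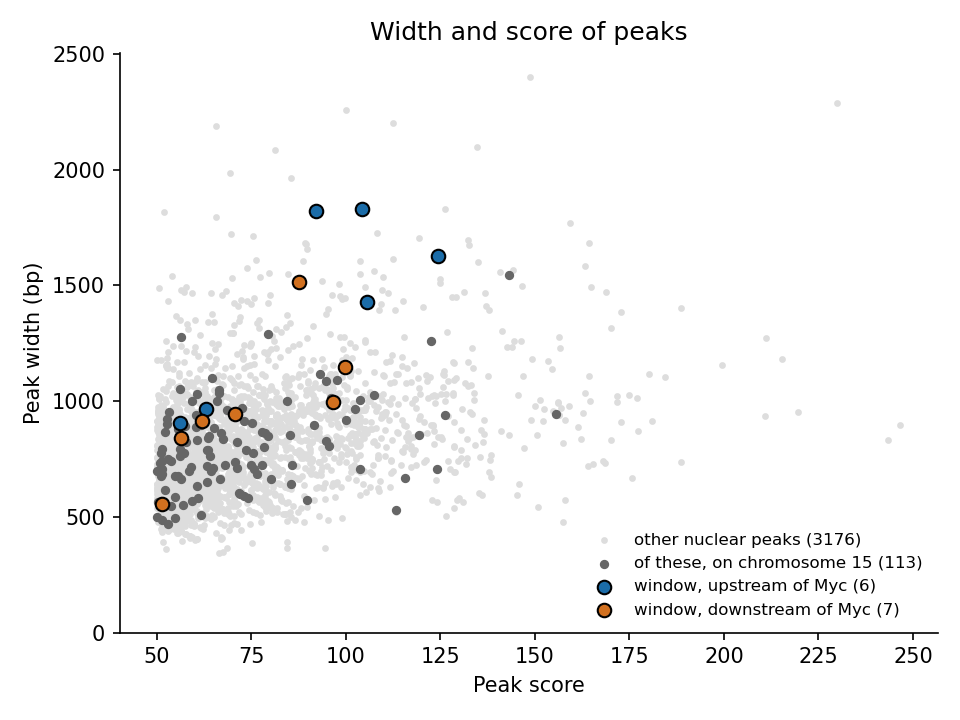
Width in bp against score for the 6 upstream peaks (blue) and 7 downstream peaks (orange) of the window, the 113 other peaks of chromosome 15 (dark grey) and the remaining nuclear peaks (light grey). The 2 peaks of the close pair, 1829 and 1822 bp wide, lie above every other peak of chromosome 15, whereas higher scores than the window's 124.27 are found elsewhere.

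The peaks of the locus lay near each other, with long empty stretches on both flanks. All 13 lay within 100 kb of another peak, beside 59 of the other 113 on chromosome 15 (52.2%, exact binomial 95% interval 42.6% to 61.7%). In the 5 other autosomal windows of this length with at least 10 peaks, described further on, between 8 of 10 and 15 of 15 peaks did so. Within 10 kb the shares were closer, as 2 of 13 (15.4%, 1.92% to 45.4%) had such a neighbour, beside 14 of 113 (12.4%, 6.94% to 19.9%). The median gap inside the window was 53.5 kb over 12 gaps, and apart from the gap of the close pair and the gap across Myc the other 10 lay between 31.8 and 143.3 kb. Over all 125 gaps of chromosome 15 the median was 278 kb, and over the 3138 autosomal gaps 279 kb. With peaks at or above the upper quartile of score alone, the median gap in the window was 110 kb. A window chosen for many peaks must have short gaps, so their length is not a separate result.

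Outside the window the nearest peaks were far away. The last peak before it, at 59676282 to 59677223 with a score of 60.45, had its midpoint 1323.2 kb outside the window's edge, and the first peak inside lay 39.3 kb within it. The last peak inside lay 107 kb from the other edge, and the first after it, at 63837399 to 63838105 with a score of 103.66, was 1537.8 kb beyond. The peaks around Myc, which together spanned 1154.5 kb, were thus bounded by empty stretches of 1.36 Mb upstream and 1.64 Mb downstream. On the autosomes 16.0% and 12.6% of gaps were longer than these. Moving the window's edges outward by 100 kb added no peak.

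**Figure D3:**
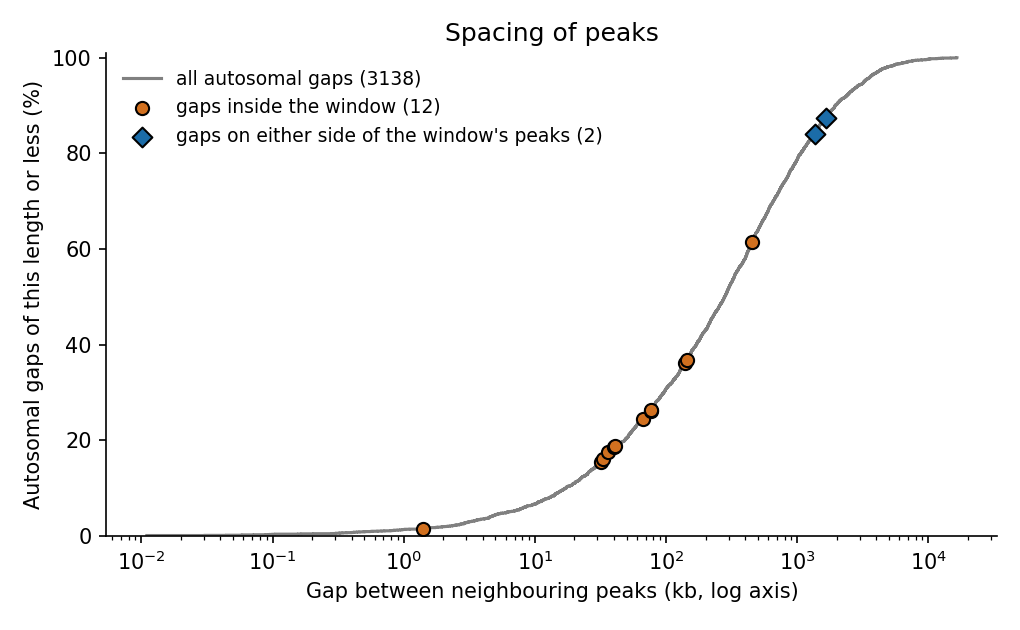
Share of the 3138 autosomal gaps between neighbouring peaks that are of a given length or less, against gap length in kb on a log axis (grey line), with the 12 gaps inside the window as orange circles and the 2 gaps on either side of its peaks as blue diamonds. The shortest inner gap is the 1.4 kb of the close pair, the longest inner gap is the 454 kb that includes Myc, and both outer gaps exceed 1.3 Mb.

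Among equal windows, the locus held the most peaks on its chromosome. Whole windows of 1.3 Mb were laid end to end through the locus, from 3.8 to 102.6 Mb of chromosome 15, which gave 75 others with 109 peaks and left 4 peaks at the chromosome's ends in no window. They held a median of 1 peak (quartiles 0 and 2, highest 11), and 33 held none. The window around Myc had 10 peaks per Mb, beside 1.15 per Mb over the rest of the chromosome's span. It held 10.3% of the chromosome's peaks in 1.30% of that span. Because the window was chosen with its density in view, these values describe it and are no test of enrichment. Its peaks covered 15.5 kb, or 1.19% of the window, and the next highest window covered 10.3 kb. Among the 7 windows with at least 5 peaks, it had the highest median width, 997 bp beside 724 to 904 bp in the other 6, and the highest median score, 87.73 beside 58.1 to 85.3.

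**Figure D4:**
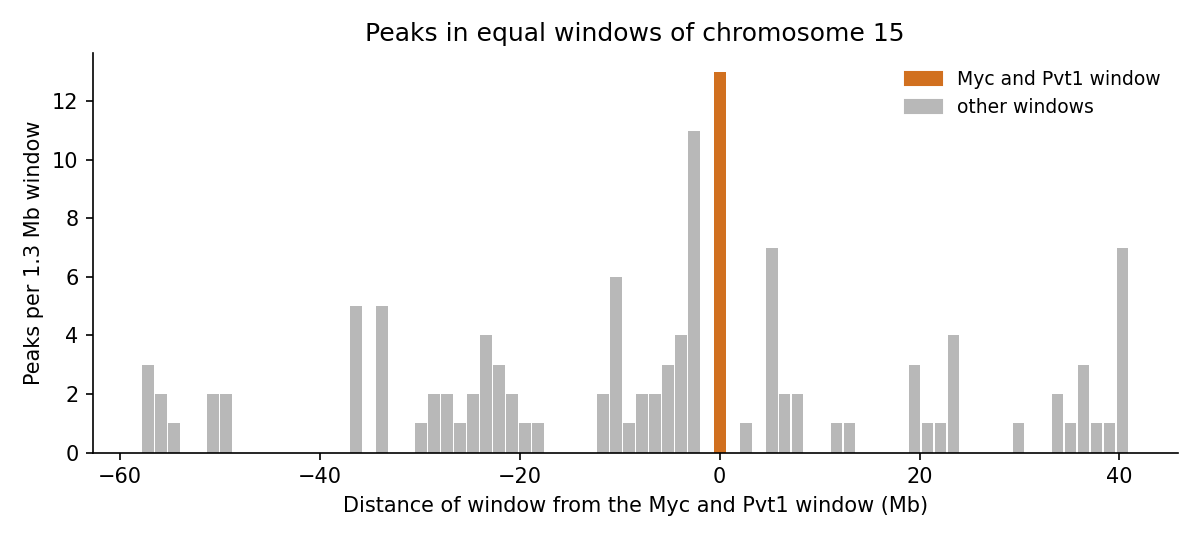
Number of peaks in each window of 1.3 Mb along chromosome 15 (bars), against the distance of the window from that of Myc and Pvt1 in Mb, with the locus in orange. The locus holds 13 peaks, the other windows hold 0 to 11, and both windows beside the locus hold 0.

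Both windows next to the locus held 0 peaks. The second highest window of the chromosome, from 58.4 to 59.7 Mb, lay beyond 1 of these empty windows. It held 11 peaks. Their median width was 904 bp, their median score was 65.16, and 1 of them was at least 1400 bp wide. Its median gap was 32.5 kb, beside 53.5 kb around Myc, and its highest score, 143.04, was above the 124.27 of the Myc window. Over all autosomes, 1 of 1797 other windows held more peaks than the locus, a window on chromosome 5 from 90.9 to 92.2 Mb with 15. In that window 12 of 15 peaks had a neighbour within 10 kb, beside 2 of 13 around Myc, and its median gap was 26.9 kb. Its peaks were of like width, with a median of 962 bp (95% interval of the median 819 to 1465 bp) beside 997 bp (907 to 1628 bp) around Myc. The 3 remaining windows with at least 10 peaks held 10 each, on chromosome 10 from 27.2 to 28.5 Mb and from 110.4 to 111.7 Mb and on chromosome 18 from 38.9 to 40.2 Mb. Their median widths were 882, 885 and 875 bp, and their median gaps were 26.1, 35.2 and 92.9 kb, so that the 53.5 kb around Myc was the second longest median gap of the 6 dense windows. Peaks at least 1400 bp wide numbered 5 of 13 around Myc, 4 of 15 in the chromosome 5 window, 2 of 10 in the chromosome 18 window, 1 of 11 in the other chromosome 15 window and 0 of 10 in each window of chromosome 10. All 13 peaks around Myc and all 15 on chromosome 5 lay within 100 kb of another, as did 10 of 11 in the other chromosome 15 window, 9 of 10 in the first chromosome 10 window and 8 of 10 in each of the other 2.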

How the data were processed

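Single-end reads of FAIRE and input DNA came from a SOLiD system, per the design text. The submitters' processing notes name MACS, a peak caller, and the mm9 build. How reads were aligned and filtered, which MACS settings applied, and which libraries served as treatment and control were not given in the sources used here, and each could change which peaks are listed. The score per peak is the peak caller's value as the authors deposited it, of unstated scale. It was used only within the list. Starts count from 0 in the list and are printed from 1.

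Gaps are the bases between neighbouring peaks. Chromosome span ran from first to last peak. The mitochondrial peak was left out of nuclear values. Sequence of mm9 was not used here, and Myc and Pvt1 were not matched in the promoter table. All peaks of the window were named, by a rule that allows up to 20. The window, the rules and the alternatives were chosen with earlier results of these data known. Window membership, gaps, window counts, merging and nearest neighbours were checked on simulated peaks. Medians, intervals, ranks, correlations and distances to Myc were not part of that check. The software was scipy 1.17.1, pandas 2.3.3 and numpy 2.4.6 under Python 3.11.15, with figures by matplotlib 3.10.9.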

Additional observations from a re-analysis of the deposited data

How the results depend on the processing

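No paired analysis was possible because the peak list has no columns per library. Nor could single libraries be omitted. Of 66 recalculations, 57 stayed within 1.5 times the value given (counts and covered bases), within the interval of a median or share, or within 1 kb (distance to Myc). Many of these could not move. Merging peaks within 1 kb joined none in the window, where the shortest gap was 1405 bp. Widening the window by 100 kb at each edge, or counting any overlap, could add no peak, as the nearest outside had its midpoint 1323.2 kb away. The 57 are therefore no measure of how firm the values are. At or above the median score the window held 8 peaks, 7 of them within 100 kb of another and 4 downstream of Myc. At or above the upper quartile it held 7, with 5 within 100 kb of another and 3 downstream, and the peak nearest to Myc was then 37628 bp away, since the one beside the gene scored 70.58. The median gap was then 110040 bp, over 2 times the 53.5 kb of all 13 peaks, though inside that median's interval. Within 10 kb of another peak lay 2 of 13. From peak midpoint to the start of Myc the shortest distance was 5976 bp. The window held more peaks than all equal windows of chromosome 15 under each setting run, except that with 100 kb taken off each edge the share with fewer was 98.9%. Unknown depth leaves unknown how many further peaks fell below the caller's threshold.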
